A study of Mus musculus with 6 samples.

Results

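The genes examined here move or bind zinc, copper and magnesium. They were chosen by symbol alone: every Slc30a, Slc39a, Slc31a and Slc41a gene in the deposited table, with the metallothioneins Mt1 and Mt2 and the copper ATPases Atp7a and Atp7b, which gave 31 genes of 28795. Their RNA was measured by poly(A) RNA sequencing in mouse bone marrow monocytes, which can become macrophages or osteoclasts. All cultures were kept in M-CSF (50 ng/ml), and 3 libraries at day 0 were compared with 3 libraries at day 5 of RANKL (50 ng/ml), the cytokine that drives osteoclast formation. The treatment label reads RANKL on both days, so the title and the time label separated them. A culture kept 5 days without RANKL was not analysed here, so RANKL and days of culture cannot be told apart. Strain, age and sex of the mice are not given in the sources used here, and no label ties each library to its own animal or culture, so p-values measure the spread between these libraries only.

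Cells hold almost no free zinc or copper. ZnT proteins (Slc30a genes) carry zinc out of the cytosol, across the plasma membrane or into vesicles and the Golgi, and ZIP proteins (Slc39a genes) carry it in the opposite direction. Metallothioneins are small cysteine-rich proteins that bind zinc and copper. The zinc sensor MTF-1, a transcription factor, binds metal response elements in their promoters. Copper enters through CTR1 (Slc31a1), and ATP7A and ATP7B pump it into the secretory pathway or out of the cell. The SLC41 proteins carry magnesium. In osteoclasts, carbonic anhydrase II and the matrix metalloproteinases that act during bone resorption are zinc enzymes.

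The total count per library lay between 64616609 and 82721513. One library, day 0 replicate 1, stood apart by the share of its counts in an 18S-related gene, 4.09% against 0.158% to 0.507% in the others. All 10 osteoclast markers rose, and their summed level went from 325 to 491 CPM at day 0 to between 25621 and 28670 CPM at day 5. All 10 monocyte and macrophage markers were tested, of which 9 fell and 1 rose (20136 to 23526 CPM summed at day 0, 7580 to 8960 CPM at day 5). Transcripts of other cells were also present. The summed level of 14 stromal and osteoblast markers (10 tested, of which 9 fell), was 14998 to 20504 CPM at day 0 and 10586 to 11567 CPM at day 5. Among those not tested, Dcn and Lum were higher in every day 5 library. Their log2 differences with no filter on low values were 1.09 (adjusted p = 0.00203) and 1.52 (adjusted p = 0.0129). Bglap was lower at day 5 (log2 difference -3.05, adjusted p = 0.175), and the days of Lepr overlapped. The 5 keratinocyte markers summed to 0.743 to 1.30 CPM at day 0 and 99.7 to 149 CPM at day 5, and all 5 passed the filter on low values only through day 5, so they had to be higher there. The 6 adipocyte markers summed to 9.57 to 15.6 CPM at day 0 and 0.701 to 2.32 CPM at day 5 (3 tested, of which Adipoq and Cidec passed the filter only through day 0), 5 endothelial markers to 16.5 to 17.1 and 6.79 to 7.28 CPM, and 8 neutrophil markers to 40.6 to 53.2 and 12.8 to 24.4 CPM (5 tested, 2 rose and 3 fell). The sums were at most 6.94 CPM in any library for 6 erythroid markers, 4.80 CPM for 3 T lymphocyte markers and 1.61 CPM for 5 B lymphocyte markers. Calcr and Oscar among the osteoclast markers passed the filter only through day 5, and the neutrophil marker Ngp and the endothelial marker Cdh5 only through day 0. No marker was at 0 in all 6 libraries. The part of these cells in the results was not tested, and in such bulk samples fewer cells of a type and less RNA per cell cannot be told apart.

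Metal handling RNA shifted moderately, in both directions, between day 0 and day 5. Of the 31 genes, 25 reached an FPKM (fragments scaled for gene length and library depth) of at least 1 in at least 3 libraries and were tested. A gene is said below to have risen or fallen where the adjusted p of edgeR's quasi-likelihood test was under 0.05. By this rule 8 rose, 9 fell and 8 did not pass. That is 17 of 25 genes, where 55.5% of all 11908 tested genes passed, 26.6% higher and 28.8% lower. Only 2 of the 25 differed at least 2-fold as well, Slc39a8 and Slc41a3, both lower. Among all tested genes 12.3% did so in either direction and 6.47% lower. None rose 2-fold by edgeR, DESeq2 or limma (5.84% of all tested genes did by edgeR), and at an unadjusted p under 0.05 edgeR had 9 genes higher, 0 of them 2-fold. The median log2 difference was -0.06 over the 25 genes and -0.0041 over all tested genes, and the median size of the difference 0.30 and 0.32. The 3 libraries of one day lay wholly above those of the other for 19 of the 25, and for 63.3% of all tested genes.

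**Figure D1:**
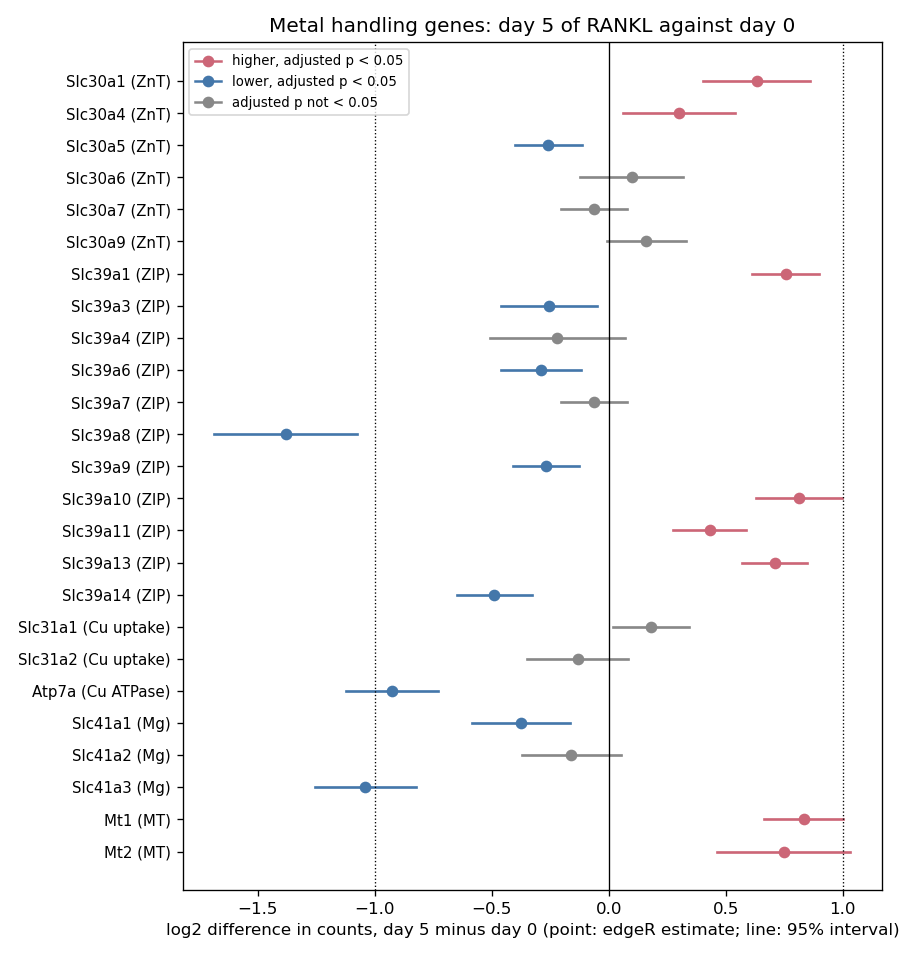
Log2 difference in counts between day 5 and day 0 for the 25 tested genes, with the 95% interval, by role (ZnT, zinc exporters and vesicle loaders; ZIP, zinc importers; Cu, copper; Mg, magnesium; MT, metallothioneins). Red points rose, blue points fell and grey points did not pass; the dotted lines mark a 2-fold difference, which Slc39a8 (-1.38) and Slc41a3 (-1.04) passed.

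Both metallothioneins of the set rose. CPM values below are counts relative to the TMM-scaled library total, log2 differences are day 5 minus day 0 with the standard error, and gene positions are those of the deposited table. Mt1 (chr8:94179082-94180327, plus strand) was at 42.0, 39.5 and 39.6 CPM in the day 0 libraries and at 71.6, 76.7 and 67.4 CPM at day 5. Every day 5 library was higher, and the rise was 1.78-fold (log2 difference 0.83 ± 0.08, adjusted p = 3.55e-06). Mt2 (chr8:94172664-94173568, plus strand) stood at 6.75, 7.74 and 6.60 CPM at day 0 and 11.04, 11.6 and 12.7 CPM at day 5, 1.68-fold higher (log2 difference 0.75 ± 0.13, adjusted p = 4.94e-04), again without overlap. The pair rose side by side: the ratio of Mt1 to Mt2 in FPKM was 2.41 to 2.93 in the day 0 libraries and 2.50 to 3.11 in those of day 5. The longest identical stretch of their annotated transcripts is 20 bases, and that of Mt1 and Mt3 is 27 bases. A weakly expressed gene on the opposite strand, Gm45774, covers 73.5% of the exon bases of Mt2 but had 205 counts in all 6 libraries together against 4108 for Mt2.

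Another metallothionein, outside the set, also rose. It was on a list of zinc partner genes chosen for comparison with earlier results of these data known. Mt3, named growth inhibitory factor from brain, where it is best known, was at 0.722, 0.729 and 0.652 CPM at day 0 and at 21.4, 32.7 and 24.2 CPM at day 5, a 37.2-fold rise (log2 difference 5.22 ± 0.19, adjusted p = 3.22e-09). It passed the filter on low values only through day 5. At day 5 its level per length, 24.1 ± 5.32 FPKM (SD, n = 3), overlapped that of Mt2 (19.7 ± 1.69) and lay below that of Mt1 (56.7 ± 3.10). Mt4, the form of stratified squamous epithelium, had 0 counts in 5 libraries and 3 in the other one, while the summed keratinocyte markers were higher at day 5 as given above. These 4 genes stand in a row on the plus strand of chromosome 8, with Mt3 18517 bases before Mt2 and Mt2 5513 bases before Mt1 in the table's coordinates, which match mouse build GRCm38.

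**Figure D2:**
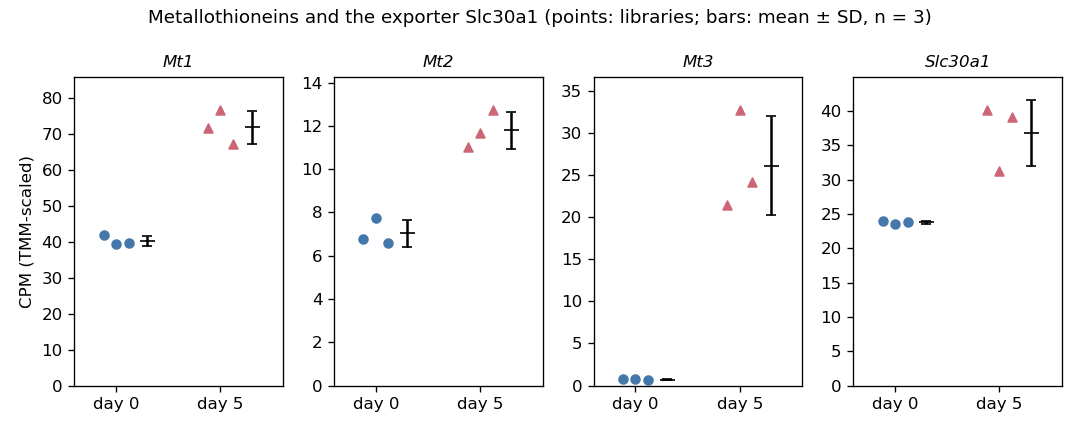
TMM-scaled CPM of Mt1, Mt2, Mt3 and the exporter Slc30a1, 1 point per library, with the mean and SD of the 3 libraries of a day. In each panel the day 5 libraries lie above those of day 0; Mt3 is below 1 CPM at day 0 and at 21.4 or more at day 5.

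The promoters of Mt1, Mt2 and Slc30a1, textbook targets of MTF-1 that all rose, are shown with that of Mt3 because their metal response elements can be read in the sequence. Each window holds 250 bases before and 50 after a RefSeq start (GRCm38.p6) and is written 5′ to 3′ on the plus strand, which is the strand of all 4 genes. Capitals mark the motif searched, TGCACNC or TGCGCNC, on either strand. The windows are chr8:94178839-94179138 (Mt1), chr8:94172368-94172667 (Mt2), chr8:94152357-94152656 (Mt3) and chr1:191906531-191906830 (Slc30a1).
Mt1: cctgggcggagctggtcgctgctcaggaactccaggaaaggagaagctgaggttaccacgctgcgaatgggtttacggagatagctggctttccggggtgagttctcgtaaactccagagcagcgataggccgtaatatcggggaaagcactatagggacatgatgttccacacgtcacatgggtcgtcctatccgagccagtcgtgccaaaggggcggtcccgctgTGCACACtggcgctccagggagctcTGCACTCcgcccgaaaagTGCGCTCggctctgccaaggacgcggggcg
Mt2: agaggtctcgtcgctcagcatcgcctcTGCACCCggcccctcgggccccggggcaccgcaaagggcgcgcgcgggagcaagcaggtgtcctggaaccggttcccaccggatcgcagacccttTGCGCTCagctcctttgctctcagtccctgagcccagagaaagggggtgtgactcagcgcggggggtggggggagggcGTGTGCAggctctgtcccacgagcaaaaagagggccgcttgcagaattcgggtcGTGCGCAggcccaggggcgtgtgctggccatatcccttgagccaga
Mt3: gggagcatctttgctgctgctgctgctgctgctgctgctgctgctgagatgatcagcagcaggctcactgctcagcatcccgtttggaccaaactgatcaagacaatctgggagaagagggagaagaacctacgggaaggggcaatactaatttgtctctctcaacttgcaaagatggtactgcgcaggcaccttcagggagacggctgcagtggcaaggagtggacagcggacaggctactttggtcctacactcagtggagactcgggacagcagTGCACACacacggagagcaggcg
Slc30a1: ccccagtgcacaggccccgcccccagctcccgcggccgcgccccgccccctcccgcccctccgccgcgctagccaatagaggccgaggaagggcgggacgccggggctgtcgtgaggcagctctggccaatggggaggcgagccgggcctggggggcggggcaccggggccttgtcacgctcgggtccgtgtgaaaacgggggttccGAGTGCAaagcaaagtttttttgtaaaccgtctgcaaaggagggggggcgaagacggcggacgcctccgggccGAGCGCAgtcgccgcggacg

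The Mt1 window held 3 matches, 2 of them at or after base 253 and so past the RefSeq start used for the window. The Mt2 window held 4, at bases 28, 123, 201 and 255. The Slc30a1 window held 2, at bases 208 and 281, and the Mt3 window 1, at base 278. The last match of the Mt2 and Slc30a1 windows and the only match of the Mt3 window also lay past the RefSeq start. Whether transcription in these cells began at the RefSeq starts was not tested. Among 32851 mouse promoter windows of this length, 25.7% held at least 1 match, 7.11% at least 2, 1.97% at least 3 and 0.517% at least 4. Windows were found for 28 of the 31 genes, 33 windows in all, and 19 of these (57.6%) held at least 1 match. At least 2 matches were held by 6 windows, those of Mt1, Mt2 and Slc30a1 among them. The others were those of Slc30a4 with 3, which rose, Slc30a2 with 2, which was not tested, and Atp7a with 2, which fell. The antioxidant response element TGACNNNGC, the site of Nrf2, which the title of the series names, had 1 match each in the Mt2 and Slc30a1 windows and 0 in those of Mt1 and Mt3, where 12.4% of all windows hold one. The match in Mt2, TGACTCAGC at base 172, also contains the AP-1 motif TGANTCA, which 7.81% of windows hold. A match is a string of letters and does not show that a factor was bound. Bases outside these windows were not searched, so 0 matches in a window does not show that a promoter lacks the element.

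Among the zinc exporters and vesicle loaders, 6 of 8 genes in the table were tested, of which 2 rose, 1 fell and 3 did not pass, with a median log2 difference of 0.13. The shares over all tested genes were 26.6% higher and 28.8% lower. The largest difference was that of Slc30a1, the ZnT of the plasma membrane and the main route of zinc out of the cell. It rose 1.55-fold from 23.8 ± 0.178 to 36.8 ± 4.84 CPM (log2 difference 0.63 ± 0.10, adjusted p = 3.39e-04), and the lowest day 5 library, at 31.2 CPM, was still above the highest of day 0, at 23.9 CPM. On the opposite strand, 1700034H15Rik shares 8.9% of its exon bases and had 72 counts against 13213. Slc30a4, a vesicular transporter that loads zinc into milk in the mammary gland, rose by a log2 difference of 0.30 ± 0.11 (adjusted p = 0.0358). That rise lost the threshold without day 0 replicate 1 (0.24, adjusted p = 0.113), without day 5 replicate 2 (0.31, adjusted p = 0.0700) and without day 5 replicate 3 (0.20, adjusted p = 0.152). It also lost the threshold with no filter on low values (0.32, adjusted p = 0.0784). The same held with limma on quantile-normalized log2(FPKM + 1) (0.26, adjusted p = 0.0579).

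The ZnT proteins of the early secretory pathway, which deliver zinc to enzymes such as alkaline phosphatase, differed little. Slc30a5 (chr13:100802648-100833427, minus strand) was the exporter gene with the highest mean FPKM, and had 82.3, 86.6 and 85.0 CPM at day 0 and 71.4, 67.2 and 73.6 CPM at day 5. It fell 1.20-fold (log2 difference -0.26 ± 0.06, adjusted p = 0.00570), and its days did not overlap. Slc30a6, whose product pairs with that of Slc30a5, had a log2 difference of 0.10 with a 95% interval from -0.12 to 0.32. Slc30a7, of the Golgi, had one of -0.06 (-0.20 to 0.08). Slc30a9, of the mitochondrion, had a log2 difference of 0.16 (adjusted p = 0.0964), which passed without day 0 replicate 3 (0.25, adjusted p = 0.0209). Slc30a2 and Slc30a3 were not tested. Slc30a2 had 0 counts at day 0 and 6, 8 and 4 at day 5, at least 5.86-fold higher against a floor of 3 counts over the day 0 libraries, with adjusted p = 0.0661 when no filter on low values was used. Slc30a3, the zinc transporter of synaptic vesicles, had 0 counts in all 6 libraries.

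**Figure D3:**
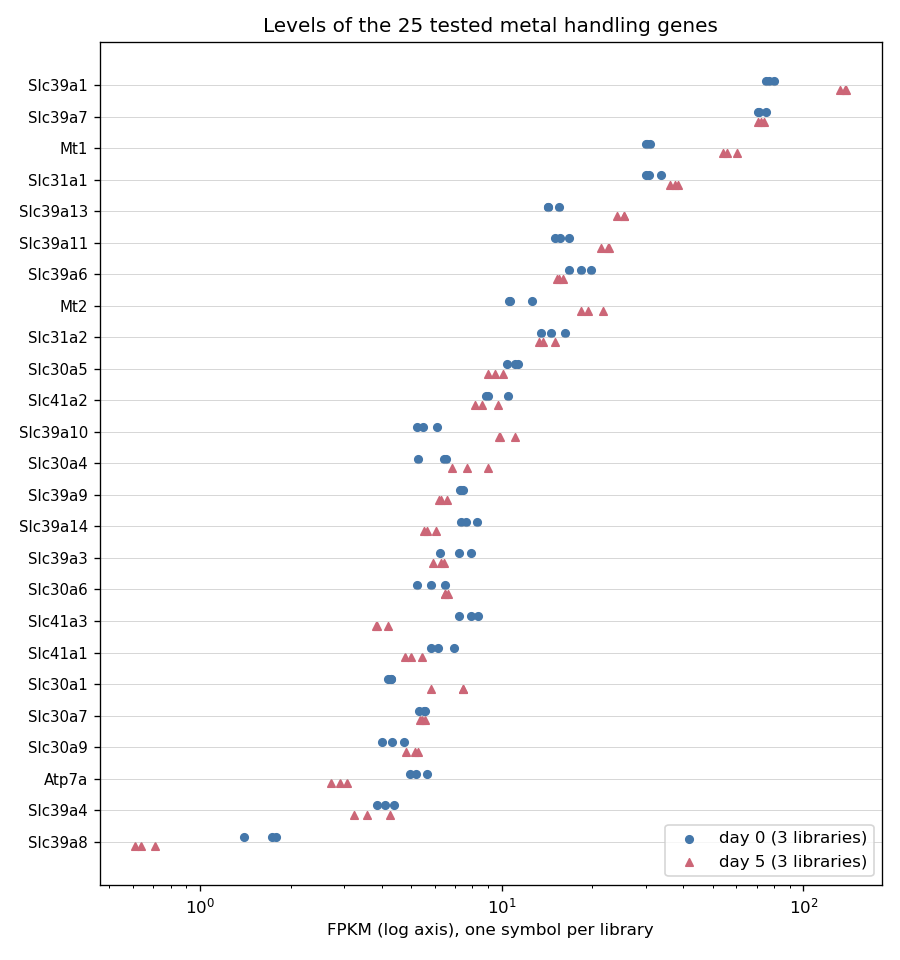
FPKM of the 25 tested genes on a log axis, 1 symbol per library, ordered by the mean over all 6 libraries. Slc39a1 and Slc39a7 are the most abundant, and Slc39a8, at 0.653 FPKM on average at day 5, is the lowest.

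The zinc importers split. Of 14 ZIP genes 11 were tested, and 4 rose, 5 fell and 2 did not pass, with a median log2 difference of -0.22, where 26.6% of all tested genes rose and 28.8% fell. The summed level per length of the ZIP genes went from 226.9, 238.6 and 232.6 FPKM at day 0 to 307.3, 307.8 and 298.4 FPKM at day 5. Slc39a1 made up 33.2% of the sum on day 0 and 44.7% on day 5. Slc39a1 (chr3:90248172-90253612, plus strand) encodes ZIP1, a widely expressed importer of the plasma membrane. It was at 193, 197 and 192 CPM at day 0 and at 334, 336 and 313 CPM at day 5, a rise of 1.69-fold (log2 difference 0.76 ± 0.07, adjusted p = 2.18e-06) with no overlap. With 136 ± 3.63 FPKM (SD, n = 3) on day 5 it was the most abundant gene of the whole set, where at day 0 its libraries, at 75.3 to 79.9 FPKM, overlapped those of Slc39a7, at 71.0 to 75.4 FPKM.

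Slc39a7, the ZIP of the endoplasmic reticulum and Golgi that releases stored zinc to the cytosol, had 195.9, 192.2 and 183.2 CPM at day 5 against 199.2, 203.4 and 193.9 CPM at day 0. Its days overlapped and its log2 difference was -0.06 (95% interval -0.20 to 0.08, adjusted p = 0.427). The count of this gene carries an uncertainty, since the read-through gene model Gm20427 shares 80.7% of its exon bases and had 10989 counts over the 6 libraries against 84581 for Slc39a7.

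The other importers that rose were Slc39a10, Slc39a11 and Slc39a13. Slc39a13 (chr2:91061791-91070417, minus strand) encodes ZIP13, an intracellular importer whose loss causes a connective tissue and bone disorder in mice and humans. It went from 75.5, 78.8 and 73.0 CPM to 120.6, 127 and 123.8 CPM, 1.63-fold (log2 difference 0.71 ± 0.06, adjusted p = 3.06e-06). Its exons share 215 bases (4.4%) with Psmc3 on the opposite strand, which had 73876 counts over all libraries against 43498 for Slc39a13. How much of the Slc39a13 count comes from these bases was not tested. Slc39a11 (chr11:113244853-113650079, minus strand) was at 57.1, 58.6 and 53.1 CPM at day 0 and at 78.3, 77.4 and 71.9 CPM at day 5, a rise of 1.35-fold (log2 difference 0.43 ± 0.07, adjusted p = 3.56e-04). Neither gene showed any overlap between days.

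Slc39a10 had the largest rise of the importers, a log2 difference of 0.81 ± 0.08 (adjusted p = 8.40e-06) from 34.7 to 39.2 CPM at day 0 to between 61.5 and 67.8 CPM at day 5. Its product, ZIP10, forms a complex with ZIP6, the product of Slc39a6. Slc39a6 went the other way, from 81.1, 71.0 and 84.7 CPM at day 0 to 63.8, 66.8 and 63.2 CPM at day 5 (log2 difference -0.29 ± 0.08, adjusted p = 0.00797), a fall of 1.22-fold without overlap.

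Slc39a8 and Slc39a14 encode close relatives, ZIP8 and ZIP14, that carry manganese and iron besides zinc, and both fell. Slc39a8 (chr3:135825279-135888572, plus strand) was at 11.7, 14.3 and 14.0 CPM at day 0 and at 4.84, 5.62 and 4.93 CPM at day 5, 2.60-fold lower (log2 difference -1.38 ± 0.14, adjusted p = 7.38e-06). It reached an FPKM of 1 only in the day 0 libraries, so it could only have entered the test as a gene that was higher at day 0. With no filter on low values the log2 difference was -1.36 (adjusted p = 9.58e-05), and on the log2(FPKM + 1) scale, which shrinks low genes, limma gave -0.67 (adjusted p = 1.58e-04). Slc39a14 fell by a log2 difference of 0.49 ± 0.07 (adjusted p = 1.65e-04), from 86.7 ± 5.08 to 61.8 ± 3.66 CPM, and per length, at 7.74 and 5.75 FPKM, it was the more abundant of the pair on both days.

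Slc39a3 and Slc39a9 fell by less. For Slc39a9, of the Golgi, the log2 difference was -0.27 ± 0.06 (adjusted p = 0.00413). Exons of Erh lie opposite to 4.5% of its exon bases, and Erh had 27354 counts over all libraries against 31518 for Slc39a9. How much of the Slc39a9 count comes from these bases was not tested. Slc39a3 had one of -0.25 ± 0.09 (adjusted p = 0.0377) that is not secure: it lost the threshold when any single library other than day 0 replicate 1 was left out, with log2 differences of -0.27 to -0.16 and adjusted p of 0.0666 to 0.192. Slc39a4, the importer of the intestine, did not pass (log2 difference -0.22, 95% interval -0.51 to 0.07).

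The remaining 3 ZIP genes were under the filter. Slc39a12, best known from brain, had 130, 105 and 112 counts at day 0 and 27, 14 and 36 at day 5. The days did not overlap, and the fit without a filter on low values gave a 4.60-fold lower level at day 5 (log2 difference -2.20 ± 0.40, adjusted p = 0.00343). Slc39a2 had 24, 8 and 4 counts at day 0 and 9, 6 and 7 at day 5, which overlap, and 4.4% of its exon bases belong also to the more abundant Mettl17. Slc39a5 had 0 counts in every library.

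**Figure D4:**
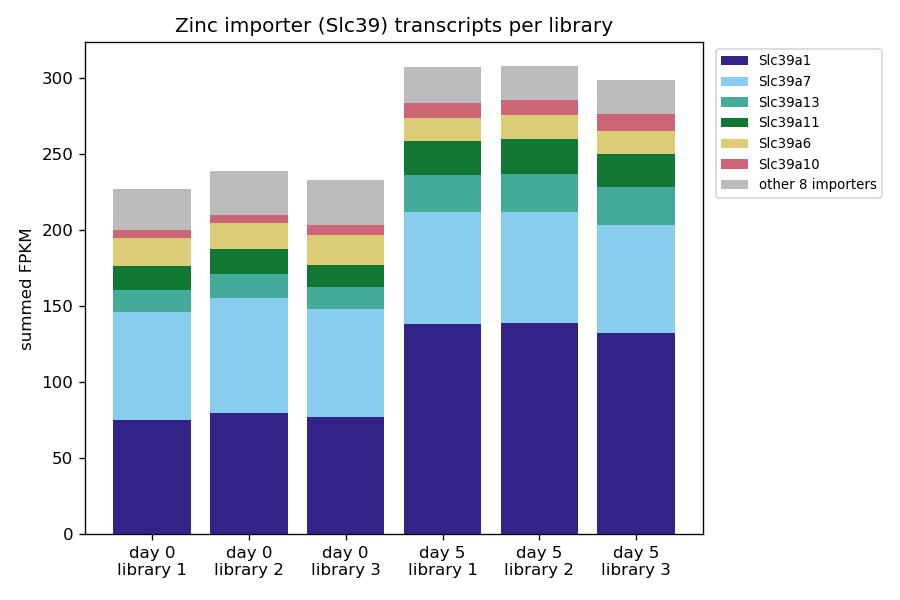
Summed FPKM of the 14 zinc importer genes in each library, stacked by gene, with the 6 most abundant drawn separately. The sum is higher in each day 5 library, and the Slc39a1 segment grows from 33.2% to 44.7% of it on average. The Slc39a7 segment has nearly the same height on both days (means of 72.5 and 72.4 FPKM) and makes up 31.2% of the lower and 23.8% of the higher sum.

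In copper handling, the exporter changed and the uptake genes did not pass. Atp7a (chrX:106027276-106124926, plus strand), the Menkes ATPase that moves copper into the trans-Golgi network and out of the cell, was at 49.4, 45.4 and 52.2 CPM at day 0 and at 27.5, 24.3 and 25.6 CPM at day 5. It fell 1.90-fold without overlap (log2 difference -0.93 ± 0.09, adjusted p = 5.37e-06), just under the 2-fold threshold. Atp7b, the Wilson ATPase of the liver, was near the limit of detection: it had 4 counts in day 0 replicate 3 and 0 in the other 5 libraries.

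Slc31a1 (chr4:62360727-62391769, plus strand), the high-affinity copper importer, was at 157, 137 and 135 CPM at day 0 and at 165, 158 and 164 CPM at day 5. The highest day 0 library, replicate 1, came within 1 CPM of the lowest at day 5. The log2 difference of 0.18 ± 0.07 did not pass (adjusted p = 0.0552), and it passed under 9 of 17 other settings, among them without day 0 replicate 1 (0.27, adjusted p = 0.00892). Its neighbour on chromosome 4, Slc31a2, whose product CTR2 acts in endosomes and lysosomes, had a log2 difference of -0.13 (95% interval -0.35 to 0.08). The gene of CTR2 ends 62315 bases before that of CTR1 starts, on the same strand.

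The 14 copper chaperones, reductases and sensors on the comparison list were all tested, and 6 rose, 1 fell and 7 did not pass, with a median log2 difference of 0.41. Among all tested genes 26.6% rose and 28.8% fell, and whether this small list differs from them was not tested. The list holds the 4 STEAP genes, a family of membrane enzymes of which several reduce iron and copper before uptake, and these did not move alike: Steap3 and Steap4 rose, Steap2 was the 1 gene of the list that fell (log2 difference -0.34 ± 0.07, adjusted p = 0.00260), and Steap1 did not pass (0.08 ± 0.15, adjusted p = 0.666). Steap4 went from 0.770, 0.533 and 0.910 CPM to 45.3, 49.8 and 45.7 CPM, a 63.2-fold rise (log2 difference 5.98 ± 0.16, adjusted p = 5.27e-10), and it passed the filter only through day 5. Steap3, the endosomal ferrireductase best known from red cell precursors, rose 2.41-fold from 24.0 ± 2.11 to 57.8 ± 4.79 CPM (adjusted p = 8.21e-07). Atox1, the chaperone that hands copper to ATP7A and the gene with the highest mean FPKM of the list, rose 1.37-fold from 29.0, 25.5 and 22.0 CPM to 34.5, 37.5 and 32.8 CPM (log2 difference 0.46 ± 0.11, adjusted p = 0.00436), while Atp7a itself fell.

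**Figure D5:**
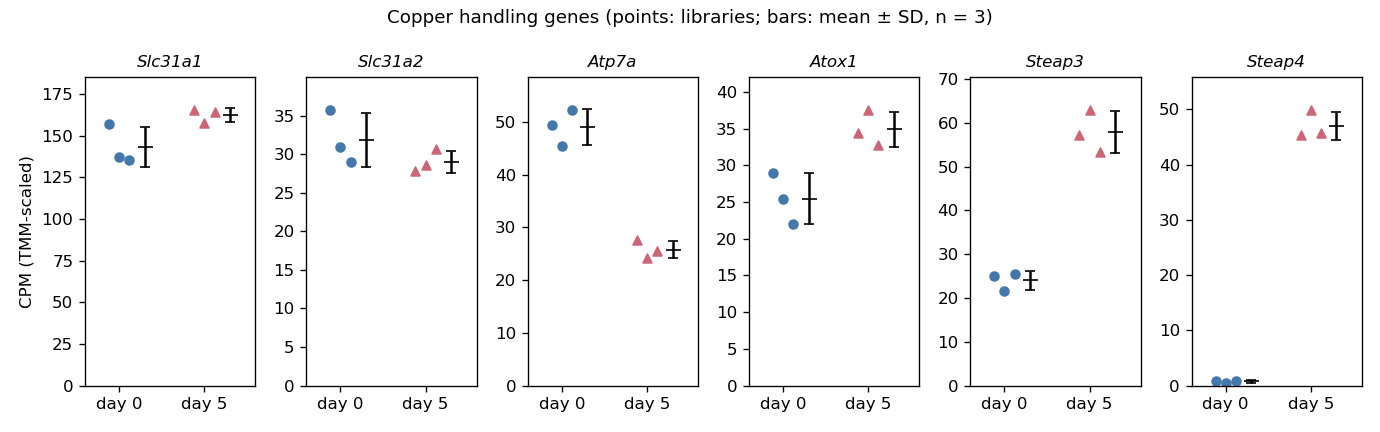
TMM-scaled CPM of 6 copper handling genes, 1 point per library, with the mean and SD of the 3 libraries of a day; each panel has its own axis from 0. Atp7a is lower in all day 5 libraries, Atox1, Steap3 and Steap4 are higher, and the points of Slc31a2 overlap.

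Of 9 tested copper enzymes 6 fell, 1 rose and 2 did not pass, with a median log2 difference of -0.28, where 28.8% of all tested genes fell and 26.6% rose. Whether this small list differs from other genes was not tested. Sod3, the secreted superoxide dismutase, fell 2.79-fold from 60.4 ± 8.09 to 21.7 ± 4.88 CPM (adjusted p = 1.07e-05), and Aoc3, an amine oxidase of vessels and fat, 2.23-fold from 17.96 ± 3.79 to 8.07 ± 1.41 CPM (adjusted p = 2.06e-04). Aoc3 came out under 2-fold with limma on log2(FPKM + 1), at -0.77, and on the same values quantile-normalized, at -0.81. Lox, the collagen-crosslinking lysyl oxidase and the most abundant of the list, fell 1.57-fold from 2589 ± 309 to 1649 ± 137 CPM (adjusted p = 3.45e-04). Lox and its relatives are made by stromal cells. Of the 10 tested stromal markers 9 fell over the same days, while Dcn and Lum, not tested, were higher as given above. The share of these cells in the falls was not tested.

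Of the magnesium carriers, 2 of 3 fell, where 28.8% of all tested genes did. Slc41a3 (chr6:90604725-90646412, plus strand), a mitochondrial magnesium exporter, was at 22.9, 25.3 and 24.3 CPM at day 0 and at 11.6, 12.5 and 11.1 CPM at day 5. It was 2.06-fold lower without overlap (log2 difference -1.04 ± 0.10, adjusted p = 4.54e-06). Its size lay at the 2-fold threshold, and it came out under 2-fold in 5 of 17 other settings, the smallest at -0.83. Among these were -0.99 without day 0 replicate 2 and -0.98 with library totals in place of TMM. Slc41a1, which exchanges magnesium for sodium at the plasma membrane, fell by a log2 difference of 0.37 ± 0.10 (adjusted p = 0.00609). Slc41a2, the one with the highest mean FPKM, had 52.5, 49.6 and 59.3 CPM at day 0 and 53.6, 44.7 and 46.3 CPM at day 5. Its days overlapped and it did not pass (log2 difference -0.16, 95% interval -0.37 to 0.05).

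Of 16 tested magnesium channels and regulators on the comparison list, 4 rose, 7 fell and 5 did not pass, with a median log2 difference of -0.04. Nipal1, one of those that rose, passed the filter only through day 5. The most abundant, Ptp4a2, a phosphatase whose family binds the CNNM magnesium transporters, had a log2 difference of 0.10 ± 0.07 (adjusted p = 0.254). Of 10 tested genes on the list of zinc partners outside the set, 2 rose, 3 fell and 5 did not pass. Besides Mt3 the gene that rose was Slc11a2, the divalent metal importer DMT1, from 72.9 ± 2.53 to 127 ± 2.66 CPM (adjusted p = 9.62e-07). The 3 that fell were Trpm2, which passed the filter only through day 0, Zfp658 and Tmem165. Atp13a2, a lysosomal polyamine ATPase linked to zinc and the most abundant of that list, showed a log2 difference of -0.11 ± 0.08 (adjusted p = 0.246). For Mtf1, the zinc sensor, it was -0.25 ± 0.10 (adjusted p = 0.0612). Of 7 tested zinc ectoenzymes that are loaded in the secretory pathway, 2 rose, 2 fell and 3 did not pass. The most abundant was Alpl, alkaline phosphatase, which is also one of the stromal markers. It fell 2.06-fold from 120.3 ± 13.2 to 58.5 ± 5.00 CPM (adjusted p = 2.79e-06). Its fall came out under 2-fold in 6 of 17 other settings. Among these were log2 differences of -0.93 without day 0 replicate 2 and -0.97 without day 5 replicate 3. Over all 54 tested genes of these lists, 15 rose and 19 fell, and 3 and 3 did so by at least 2-fold. These counts lie near the shares over all tested genes, 26.6% higher and 28.8% lower, and 5.84% and 6.47% at 2-fold.

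With 3 libraries a day, an exact permutation test (two-sided) of a single gene cannot give less than p = 0.1, and the 19 tested genes with separate days reached that value.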

How the data were processed

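The authors deposited a table with counts per gene, which per the file headers are raw counts, and with FPKM values that the authors had normalized for length and depth. Tools listed in the submitters' processing notes, with no version, are HISAT2, fastp, edgeR and StringTie, and the build listed is human, GRCh38. The gene IDs are mouse: 99.7% are in GENCODE M21 (GRCm38), 29 of the 31 genes with the same start and end. Libraries were stranded per the labels' protocols, but no source used here says whether counting used the strand.

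Counts were tested with edgeR 4.0.16 (R 4.3.3; TMM factors, quasi-likelihood F test, day as the only term) over the 11908 genes that reached 1 FPKM in 3 or more libraries. P-values were adjusted by Benjamini-Hochberg over all of them. Standard errors come from the log2 difference and the F statistic. The common biological coefficient of variation was 0.117, and no 2 libraries of a day differed as little as sampling noise (smallest chi-square per degree of freedom 22.9). The fit was tested on simulated data. Alternatives used limma 3.58.1, DESeq2 1.42.0, other scalings and filters, a replicate block, and each library left out.

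The genes, lists and tests were chosen with earlier results of these data known. Values for every library are given for genes that differed 2-fold, the most abundant of each role, and those with an adjusted p under 0.05 and a mean of at least 10 FPKM, and for the comparison genes Mt3, Steap4 and Atox1. Other comparison genes were named for a 2-fold difference or as the most abundant of a list, and Slc11a2, Trpm2, Zfp658, Tmem165, Mtf1, Steap1, Steap2 and Nipal1 after their values were seen. Figures were drawn with matplotlib 3.10.9.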

Additional observations from a re-analysis of the deposited data

How the results depend on the processing

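Over 17 alternatives, none of the 25 tested genes changed direction. Slc30a4, Slc30a5 and Slc39a3 lost the adjusted p in some, Slc39a8 and Slc41a3 the 2-fold size but not the adjusted p, and Slc30a9 and Slc31a1 gained the adjusted p in some. The others kept their side of both thresholds wherever they were tested. Genes that rose numbered 7 to 10 and genes that fell 7 to 9. Genes 2-fold lower, 2 in the report, were 3 with no filter on low values and with filterByExpr, 1 with library totals, with a filter of FPKM at least 5 and with limma on log2(FPKM + 0.1), 0 with limma on log2(FPKM + 1), raw or quantile-normalized, 1 to 2 with each library left out, and 9 when no size was asked. When no size was asked 8 were higher, 34 comparison genes were called and 6608 genes overall. The count of all genes called at both thresholds, 1465, was 2303 with no filter, 2366 with filterByExpr, 839 with FPKM at least 5, 964 with limma on log2(FPKM + 1) and 1446 to 1525 with each library left out. Slc30a5 missed the adjusted p with limma on log2(FPKM + 1) (-0.18, adjusted p = 0.0528) and on log2(FPKM + 0.1) (-0.20, adjusted p = 0.0530). The causes were not tested. With the replicate number as a block, 1470 genes were called, 0 and 2 of the set at 2-fold, with 9 rising and 9 falling. The deviations of same-numbered libraries correlated at -0.0751 to 0.235, so the numbers were not taken as pairs. Depth limits Slc30a2, Slc30a3, Slc39a2, Slc39a5 and Atp7b: the floor of 3 counts over a day's libraries is 0.0140 CPM at day 0 and 0.0136 CPM at day 5, for counting error only.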
